A study of Mus musculus with 6 samples.

Results

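Tuft cell genes were examined as a group of 9 genes listed by name, Pou2f3, Gfi1b, Trpm5, Dclk1, Il25, Il17rb, Avil, Alox5 and Ptgs1. All 9 were found among the 55341 gene symbols of the GENCODE annotation of GRCm38/mm10. The rule for choosing them uses no measured value, though it was set with earlier results of these data known. For each gene, the promoter was the stretch of 1000 bp on each side of every annotated transcript start, and its cover was the percent of those bases under called peaks. The organoids were wild-type C57BL/6 mouse colonic organoids, which are epithelial cultures grown from the colon. They were kept in the same wild-type organoid medium with serum and L-WRN conditioned medium, either with nothing added (wt) or with the inflammatory cytokine TNFα at 40 ng/ml for 3 weeks (wt+TNFα). H3K4me3 and H3K27me3 were profiled by ChIP-seq with 1 library per condition and mark, so every difference below is between single libraries, without replicate error and without a test.

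Tuft cells are rare chemosensory cells of the gut epithelium that sense luminal signals through a taste-type cascade and release IL-25, which sets off type 2 immunity and the expansion of tuft and goblet cells. They also make eicosanoids, the lipid mediators derived from arachidonic acid. H3K4me3 marks the starts of active or activatable genes, and H3K27me3 is the Polycomb mark of silenced genes, often spread over wide domains. In a bulk culture, the share of cells that carry a mark and the amount of the mark per cell cannot be told apart.

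The 9 genes were mostly without H3K4me3 and often with H3K27me3. H3K4me3 was called at the promoter of 1 of 9 genes, Il17rb, in both conditions, against 51.8% of 20780 autosomal protein-coding genes in wt and 52.5% in wt+TNFα. H3K27me3 was called at 6 of 9 promoters in wt (Pou2f3, Gfi1b, Dclk1, Il25, Alox5 and Ptgs1), against 22.3% of autosomal protein-coding genes. It was called at 6 of 9 in wt+TNFα, against 27.5%, where Ptgs1 was no longer among them and Trpm5 was counted for 9 bp (6.48% had H3K27me3 in wt+TNFα alone). With the wt+TNFα list trimmed to the autosomal length of the wt list, the wt+TNFα count was 4 of 9, without Il25 and Trpm5, against 18.4%. The other 8 genes had no H3K4me3 peak in either condition, as did 46.7% of autosomal protein-coding genes. No gene carried both marks in the same condition (7.81% of autosomal protein-coding genes did), and Avil alone had no peak of either mark at its promoter (25.9%). Among the 9709 autosomal protein-coding genes without H3K4me3 in either list, a background chosen after the values were seen, the share with H3K27me3 was 34.3% in wt and 43.4% in wt+TNFα.

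**Figure D1:**
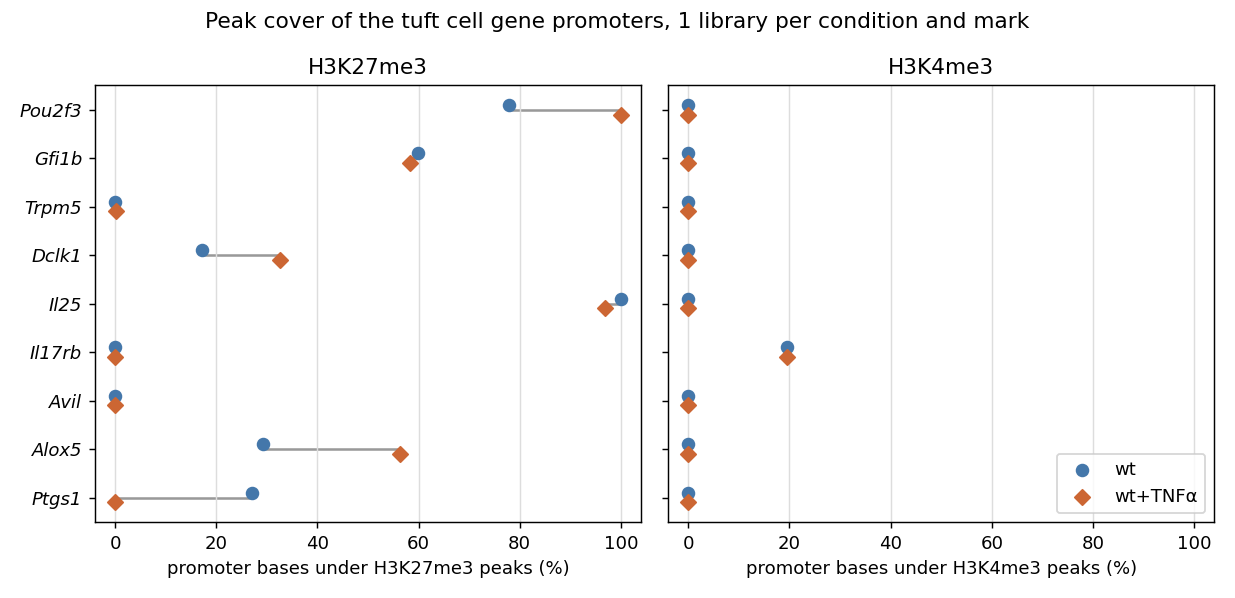
Percent of promoter bases under H3K27me3 peaks (left) and H3K4me3 peaks (right) for each of the 9 tuft cell genes, in wt (circles) and wt+TNFα (diamonds), with 1 library per point and a grey line joining the 2 conditions. H3K27me3 cover spans 0 to 100% in both conditions, and in the H3K4me3 panel Il17rb alone stands off 0.

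The peak lists themselves differed in extent. On the autosomes, the authors' wt list held 30347 H3K27me3 peaks and the wt+TNFα list 48962, which covered 2.25 times as much, while the covered length of H3K4me3 differed by a ratio of 1.09. On the X chromosome, which holds none of the 9 genes, 0.597 Mb lay under H3K27me3 in wt and 74.7 Mb in wt+TNFα. The name of the wt+TNFα H3K27me3 list also lacks the mention of a spike-in that the other 3 names carry. The part of these differences in the H3K27me3 results was not tested. Values with the lists trimmed to the same autosomal length (equal covered length) are given for the 9 genes where they turn a result. Peaks ranked lowest by the peak caller's adjusted p-value were dropped first. The wt H3K27me3 list was the shorter, so it stayed whole and the wt+TNFα list alone lost peaks. Values at equal covered length were not computed for the other lists named here. Epithelial identity was seen in the H3K4me3 lists, with peaks at 12 of 12 epithelial marker promoters in wt and 11 of 12 in wt+TNFα (Krt20 had 22.0% and 0%). None of 12 blood cell or 10 mesenchymal marker promoters, which include Ptprc and Col1a1, had an H3K4me3 peak in either condition. H3K27me3 was called at 6 blood cell markers in wt and 7 in wt+TNFα (Lyz2 had 0% and 100%), at 5 mesenchymal markers in both and at no epithelial marker.

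Promoter sequences are shown because H3K4me3 in mammals tends to lie on CpG-rich starts. The RefSeq promoter table of GRCm38.p6, with 250 bases before and 50 after each start, held 7 of the 9 genes, all but Pou2f3 and Il25. Of these, 4 are printed from 5′ to 3′ on the gene's own strand, with CpG dinucleotides in capitals. They stand for the H3K4me3 promoter (Il17rb, chr14:30008847-30009146, minus strand), the promoter with H3K27me3 in wt alone (Ptgs1, chr2:36230176-36230475, plus strand), a start under H3K27me3 in both conditions (Alox5, chr6:116461129-116461428, minus strand) and the promoter with neither mark (Avil, chr10:127000459-127000758, plus strand).
Il17rb: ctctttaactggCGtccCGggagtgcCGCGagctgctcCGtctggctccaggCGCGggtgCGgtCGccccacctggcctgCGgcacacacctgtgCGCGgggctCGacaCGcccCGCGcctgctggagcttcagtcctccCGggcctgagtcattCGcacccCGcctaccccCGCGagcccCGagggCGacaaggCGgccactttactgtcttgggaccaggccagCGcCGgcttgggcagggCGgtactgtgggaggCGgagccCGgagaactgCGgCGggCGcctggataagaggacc
Ptgs1: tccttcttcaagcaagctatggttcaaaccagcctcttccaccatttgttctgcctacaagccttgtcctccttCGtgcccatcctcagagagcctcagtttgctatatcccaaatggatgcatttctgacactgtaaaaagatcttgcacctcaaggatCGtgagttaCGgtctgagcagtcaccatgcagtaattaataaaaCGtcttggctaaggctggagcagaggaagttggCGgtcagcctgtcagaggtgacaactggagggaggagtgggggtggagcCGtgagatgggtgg
Alox5: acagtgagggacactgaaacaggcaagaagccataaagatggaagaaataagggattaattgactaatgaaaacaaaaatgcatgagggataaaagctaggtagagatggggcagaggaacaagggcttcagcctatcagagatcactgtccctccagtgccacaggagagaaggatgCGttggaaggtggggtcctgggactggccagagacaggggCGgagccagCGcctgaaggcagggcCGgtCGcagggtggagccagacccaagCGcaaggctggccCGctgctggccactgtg
Avil: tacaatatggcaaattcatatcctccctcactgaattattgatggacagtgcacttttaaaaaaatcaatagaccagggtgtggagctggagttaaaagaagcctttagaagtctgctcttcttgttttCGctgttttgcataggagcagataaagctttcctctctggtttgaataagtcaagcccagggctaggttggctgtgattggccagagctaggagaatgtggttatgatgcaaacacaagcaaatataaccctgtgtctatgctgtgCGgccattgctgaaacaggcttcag

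Il17rb had 32 CpGs in its 300 bp and a ratio of observed to expected CpG of 0.823. The median over 8710 autosomal protein-coding genes with H3K4me3 was 22 CpGs and 0.789. Il17rb lay above these medians, and the windows of the other genes held far fewer CpGs. Alox5 and Gfi1b had 7 CpGs each (ratios 0.323 and 0.492), Ptgs1 had 6 (0.313), and Trpm5 had 5 (0.237). Dclk1 had 5 at the start of its long form (0.241) and 6 at that of its short form (0.318). Genes with H3K27me3 and no H3K4me3 had a median of 8 CpGs and a ratio of 0.381. Avil had 2 CpGs and a ratio of 0.146, close to the medians of 2 and 0.167 for the genes with neither mark. The 8 windows were searched on both strands for the octamer ATGCAAAT that POU factors bind, the TATA box TATAAA, and a κB form of 10 letters in which GGGA and TTTCC flank any base. None of them was in any window, and they occur in 1.74%, 13.6% and 0.411% of all 32851 RefSeq promoters.

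Pou2f3, the transcription factor that tuft cells require for their formation, lay under the widest H3K27me3 peak of the 9 genes in wt+TNFα. It spans chr9:43123939-43210369 on the minus strand. In wt, 9 separate peaks touched the gene, and the one over both coding starts ran for 26391 bp (chr9:43188412-43214802) with a fold enrichment over input background of 3.02, wider than 99.2% of the list. In wt+TNFα, 2 peaks covered nearly the whole gene. The longer one ran for 70083 bp (chr9:43146946-43217028) with a fold enrichment of 2.67, wider than 99.7% of its list. Fold enrichments were computed by the authors within each library and serve here to place a peak in its own list, not to compare the conditions. Promoter cover was 77.9% in wt and 100% in wt+TNFα. Both coding starts were at 100% in both conditions, and the difference lay at the start of a retained-intron transcript inside the gene, with 33.8% and 100%.

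Gfi1b, a zinc-finger repressor expressed in tuft cells, had almost the same H3K27me3 in both conditions. It spans chr2:28609450-28621982 on the minus strand. Its promoter cover was 59.8% in wt and 58.4% in wt+TNFα. The peak over the main starts was 2338 bp wide in wt (chr2:28619897-28622234, fold enrichment 2.65, higher than 90.3% of the list) and 2727 bp wide in wt+TNFα (chr2:28619513-28622239, fold enrichment 3.02, higher than 97.1%). The 5′ edges of the 2 peaks differed by few bases, and the mark ended just upstream of the gene. A second, weaker peak at an internal start had a −log10 q, the peak caller's adjusted p-value on a log scale, of 0.976 in wt and 1.00 in wt+TNFα. At equal covered length, the wt+TNFα peak at the internal start dropped out and cover was 32.1% in wt+TNFα against 59.8%.

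**Figure D2:**
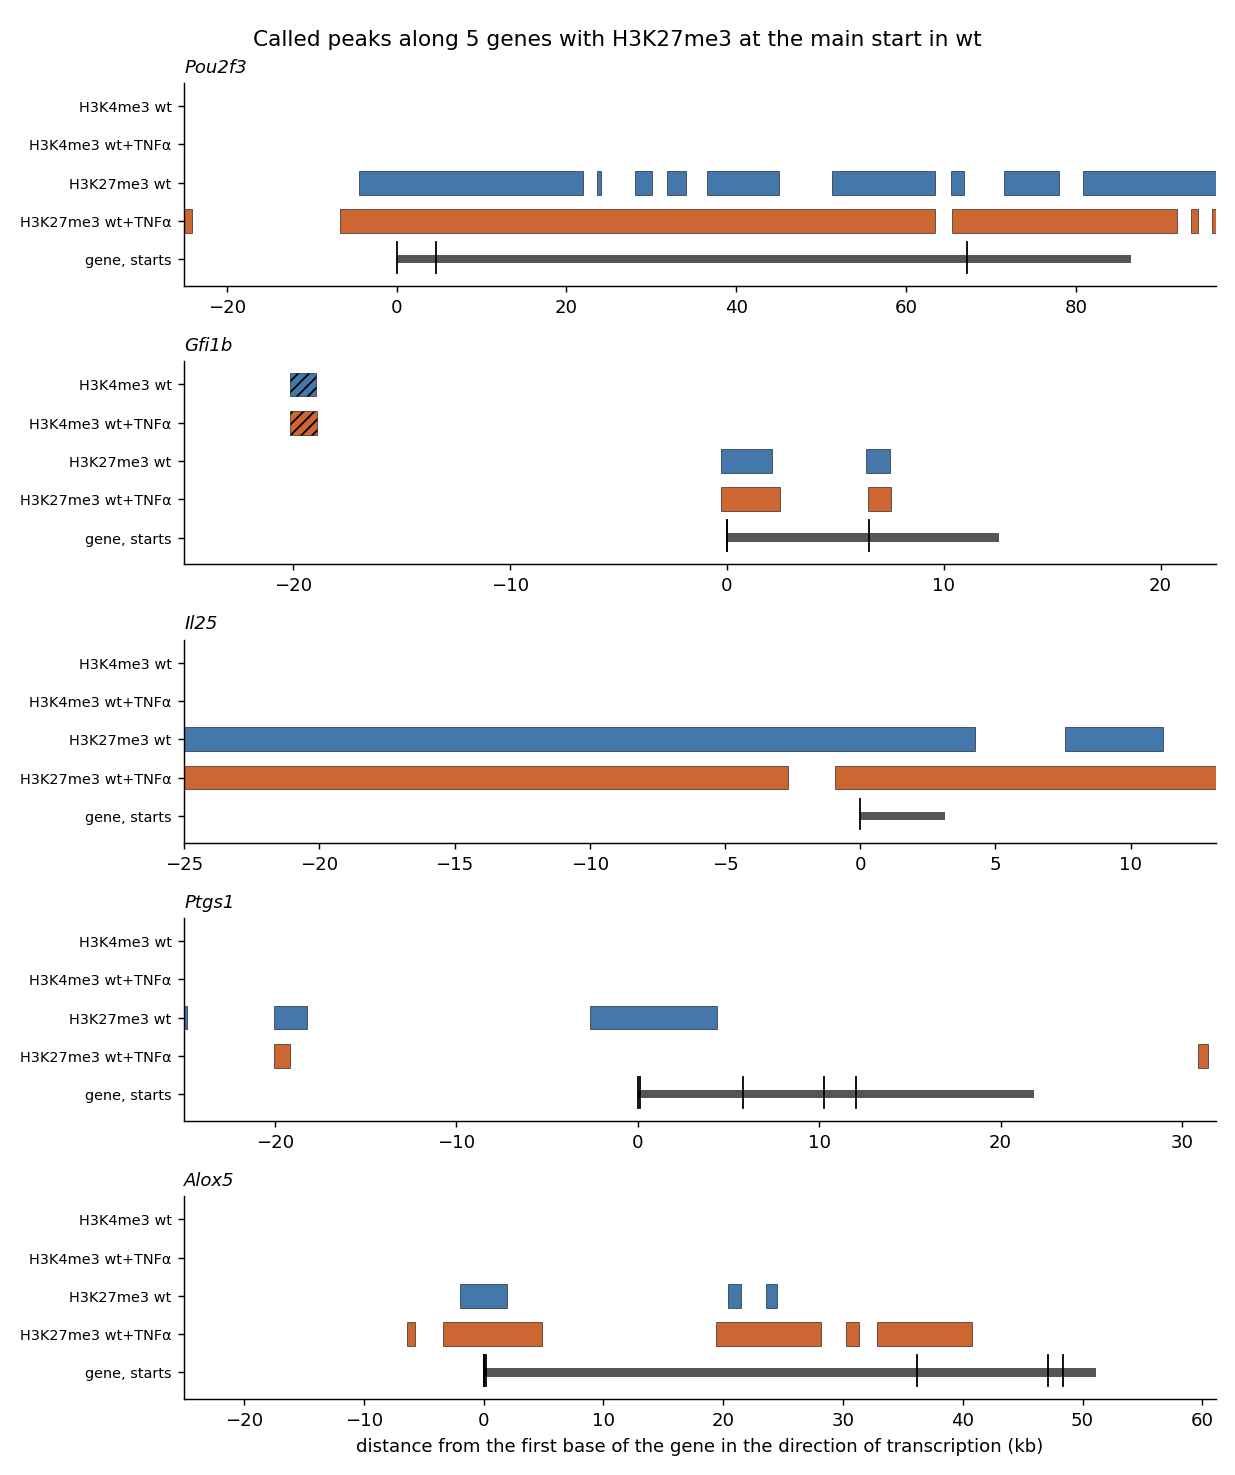
Called peaks of H3K4me3 (hatched) and H3K27me3 (plain) in wt (blue) and wt+TNFα (orange) along Pou2f3, Gfi1b, Il25, Ptgs1 and Alox5, by distance in kb from the first base of each gene in the direction of transcription; grey bars are genes and ticks are transcript starts. The Ptgs1 start lies under a wt peak of 7022 bp and under no wt+TNFα peak.

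Il25, the cytokine that tuft cells release, lay within a broad H3K27me3 domain shared with its neighbours. The gene spans chr14:54932695-54935837 on the plus strand. Its single start had a cover of 100% in wt and 96.9% in wt+TNFα. In wt, 1 peak of 31734 bp (chr14:54905200-54936933, wider than 99.5% of the list) held the starts of Slc22a17, Efs, Cmtm5 and Il25. In wt+TNFα the domain was split upstream of Il25, and the peak over the gene ran for 24340 bp (chr14:54931758-54956097) over promoters of Cmtm5, Il25 and the cardiac myosin gene Myh6. The Il25 gene body was under H3K27me3 entirely in both conditions. The wt+TNFα peak over Il25 had a −log10 q of 2.32, and the upstream piece over Efs and Slc22a17 (chr14:54904647-54930040) had 13.5. The undivided wt peak had 6.54, so these values belong to peaks of unlike extent. At equal covered length, where the wt+TNFα list alone lost peaks, the peak over Il25 dropped out. Cover was then 100% in wt and 0% in wt+TNFα.

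Il17rb, the receptor subunit for IL-25, was the exception of the group. It spans chr14:29996135-30008896 on the minus strand. Its promoter cover by H3K4me3 was 19.5% in both conditions, 1116 bp in wt and 1118 bp in wt+TNFα of 5724 bp. At the coding start (chr14:30008896, minus strand) the cover was 55.8% and 55.9%. The peak was 2285 bp wide in wt (chr14:30008781-30011065) with a fold enrichment of 16.1, higher than 28.6% of the list, and 2132 bp wide in wt+TNFα with 17.7, higher than 29.3%. It thus belonged to the weaker part of both lists. The peak extended away from the Il17rb body over the start of Chdh, a choline dehydrogenase gene transcribed in the opposite direction 127 bp away, so which of the genes it belongs to cannot be told apart. No H3K27me3 lay at the promoter in either condition.

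Trpm5, the cation channel at the end of the taste-type cascade, had no H3K4me3 at any of its 8 starts. It spans chr7:143069153-143094642 on the minus strand. The H3K4me3 peak inside the gene lay at its 3′ end, over the promoter of Tssc4. No H3K27me3 peak touched the gene in wt. In wt+TNFα a peak of 1929 bp (chr7:143088206-143090134, fold enrichment 1.94, −log10 q 1.43) and a second of 2211 bp (−log10 q 1.04) lay inside the gene. Neither was left at equal covered length or with a −log10 q of at least 2. They left the coding start at 0% and reached the promoter of an internal retained-intron transcript by 9 bp, a cover of 0.101%.

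Avil encodes advillin, an actin-binding protein of the tuft cell apex, and spans chr10:127000709-127020994 on the plus strand. Its 4 starts were free of both marks, the nearest H3K27me3 peak being 3079 bp from a start in wt and 1570 bp in wt+TNFα. The gene body held 3 H3K27me3 peaks in wt, of which the strongest was 2169 bp wide with a fold enrichment of 2.68. In wt+TNFα a single peak of 13614 bp (chr10:127004705-127018318, fold enrichment 2.22) spanned all 3 of them.

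Dclk1, a microtubule-associated kinase used as a tuft cell marker, spans chr3:55242364-55539068 on the plus strand and showed differences of both signs among its starts. At its first starts, which give the long form, the cover was 100% and 100% in wt and 58.0% and 66.1% in wt+TNFα. Both conditions had a strong peak there, of 3531 bp in wt (chr3:55240936-55244466, fold enrichment 3.49, higher than 97.4% of the list) and of 5185 bp in wt+TNFα (chr3:55242204-55247388, fold enrichment 2.66, higher than 95.5%). The wt+TNFα peak began further downstream and ended further into the gene. The next starts, at chr3:55247071 and chr3:55247279, had 0% in wt and 65.9% and 55.5% in wt+TNFα. The starts of the short form, from chr3:55461728 to 55461972, had no peak of either mark in either condition, with the nearest wt+TNFα H3K27me3 peak 1158 bp away. The start of a processed transcript near the 3′ end (chr3:55527879) had 0% in wt and 73.4% in wt+TNFα, under a peak with a −log10 q of 1.64. Over all starts, Dclk1 cover was 17.1% in wt and 32.6% in wt+TNFα. With 1 start per gene the sign turned, to 100% in wt and 58.0% in wt+TNFα, and at equal covered length the values were 17.1% and 20.9%.

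**Figure D3:**
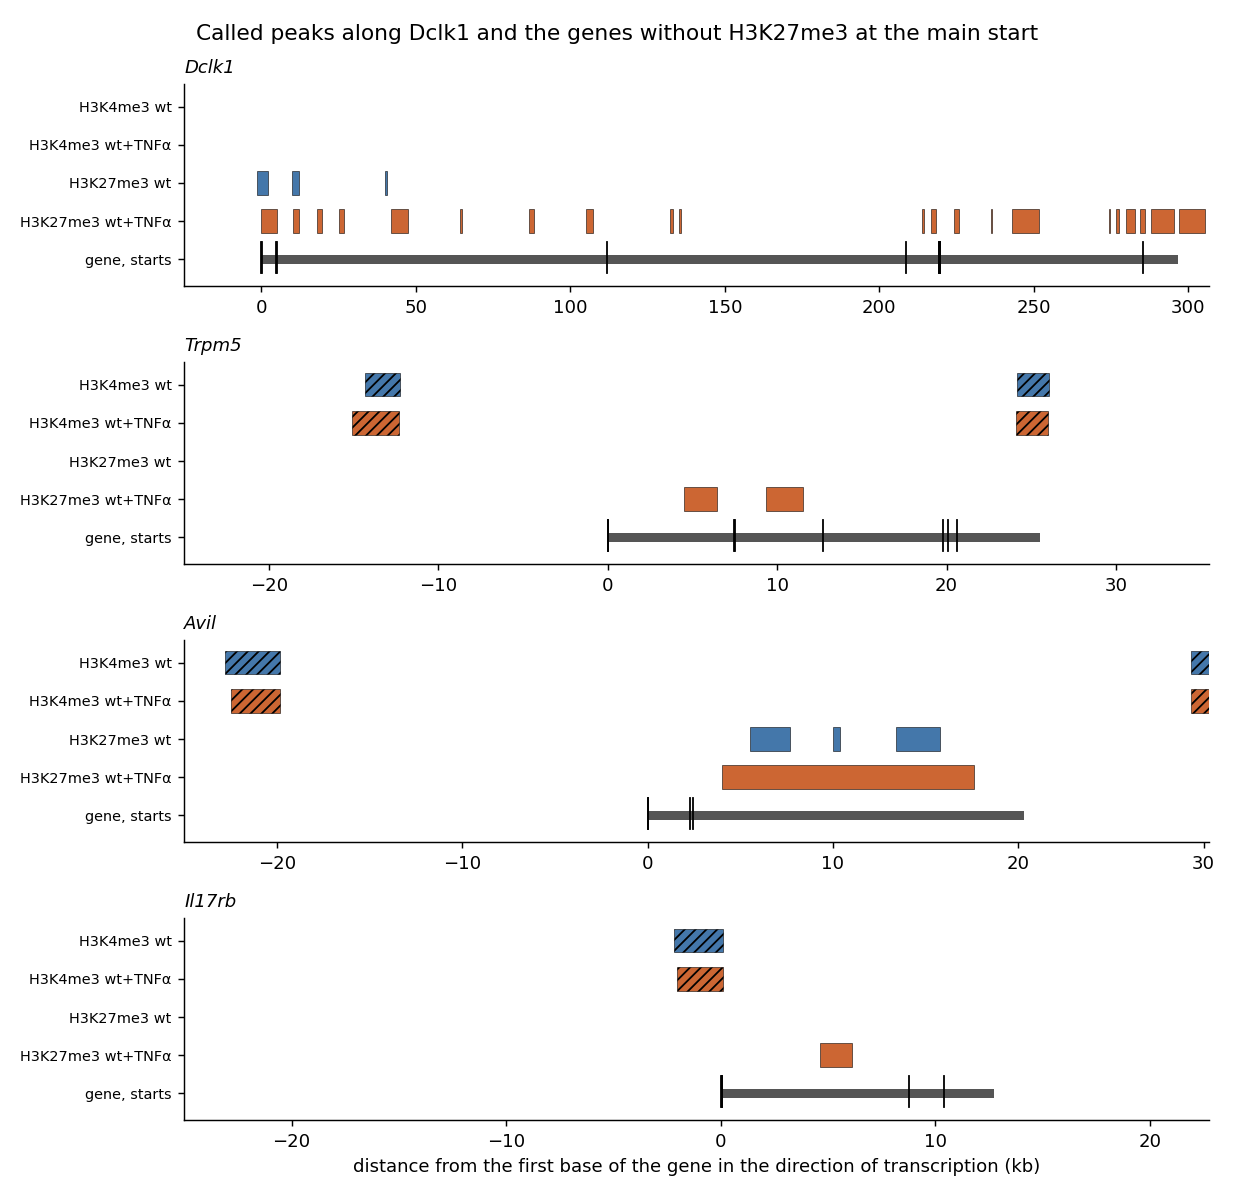
Called peaks of H3K4me3 (hatched) and H3K27me3 (plain) in wt (blue) and wt+TNFα (orange) along Dclk1, Trpm5, Avil and Il17rb, by distance in kb from the first base of each gene in the direction of transcription; grey bars are genes and ticks are transcript starts. Along Dclk1 there are 3 H3K27me3 peaks in wt and 20 in wt+TNFα, and Il17rb alone has an H3K4me3 peak at its first start.

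The eicosanoid enzyme genes had unlike patterns. Alox5 encodes 5-lipoxygenase, which makes leukotrienes, and Ptgs1 encodes cyclooxygenase-1, which makes prostaglandins. Alox5 spans chr6:116410077-116461178 on the minus strand. The main starts of Alox5 were at 100% in both conditions, under a peak of 3908 bp in wt (chr6:116459255-116463162, fold enrichment 2.31, −log10 q 1.67) and of 8273 bp in wt+TNFα (chr6:116456342-116464614, fold enrichment 2.53, −log10 q 4.31). By fold enrichment the wt peak was higher than 80.0% of its list. With a −log10 q of at least 2 the wt peak dropped out, and promoter cover was 0% in wt and 29.2% in wt+TNFα. This cut-off left H3K27me3 at 14.0% of autosomal protein-coding genes in wt and 20.1% in wt+TNFα, against 22.3% and 27.5% without it. The Alox5 promoter cover of 29.2% in wt and 56.3% in wt+TNFα differed through an internal processed-transcript start (chr6:116424963), with 0% and 100%. That start lay under a second wt+TNFα peak of 7929 bp, and at equal covered length the cover was 29.2% in both conditions.

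Ptgs1 (chr2:36230426-36252272, plus strand) was the gene of the group whose main start was under H3K27me3 in wt alone. The wt peak was 7022 bp wide (chr2:36227783-36234804, fold enrichment 2.77, higher than 91.8% of the list, −log10 q 3.04) and covered the coding start (chr2:36230426, plus strand) at 100%. In wt+TNFα no H3K27me3 peak touched the gene, and the nearest one lay 19169 bp from the coding start. Over all starts, the peak covered 2131 of the 7895 promoter bp in wt, and no base was covered in wt+TNFα. The wt peak ranked among the stronger of its list, and the difference was present under each of the 10 alternative settings. An H3K27me3 peak in wt alone was found at 1.28% of autosomal protein-coding genes and at 3.24% of the 3330 that had H3K27me3 in wt and no H3K4me3, the latter background having been chosen after the values were seen. No H3K4me3 peak was called there in either condition, and the nearest H3K4me3 peak was 93165 bp from the coding start in wt and 93065 bp in wt+TNFα.

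Across the promoters, H3K27me3 cover was at least 10 percentage points higher in wt+TNFα at 3 of 9 genes (Pou2f3, Dclk1 and Alox5) and lower at 1 of 9 (Ptgs1), against 13.3% and 2.22% of autosomal protein-coding genes. Among genes without H3K4me3 the shares were 22.3% and 2.21%, beside 3 and 1 of the 8 tuft cell genes of that kind. Among those that also had H3K27me3 in wt they were 38.6% and 6.46%, beside 3 and 1 of 6. With starts of protein-coding transcripts alone, none of the 9 was higher by that margin and Ptgs1 was still lower, against 11.9% and 2.40%. At equal covered length, where the wt+TNFα list alone lost peaks, 1 of 9 was higher (Pou2f3) and 3 of 9 were lower (Gfi1b, Il25 and Ptgs1). The background in that setting was 5.26% higher and 5.71% lower. The median cover of the 9 genes was the value of Ptgs1 in wt and the higher value of Dclk1, 32.6%, in wt+TNFα. That of the autosomal protein-coding genes was 0% in both. In some other settings the median of the 9 genes was lower in wt+TNFα. At equal covered length it was again that of Ptgs1 in wt and was 0% in wt+TNFα. With 1 start per gene it was that of Dclk1 in both, 100% in wt and 58.0% in wt+TNFα. It was also lower with coding starts (Gfi1b in wt, Dclk1 in wt+TNFα) and, slightly, with 2000 bp (Alox5 and Dclk1).

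H3K27me3 was also measured over the gene bodies, a measure that was chosen after the promoter values were seen. The Avil body was covered at 24.0% in wt and 67.1% in wt+TNFα, Alox5 at 7.63% and 44.4%, and Pou2f3 at 70.5% and 97.7%. Trpm5 had 0% and 16.2%, Dclk1 1.70% and 16.3%, and Il17rb 0% and 11.6%. The body of Ptgs1 was the opposite case, with 4379 of 21847 bp in wt and 0 bp in wt+TNFα. Gfi1b had 25.6% and 28.2%, and Il25 was at 100% in both. In all, 6 of 9 bodies had at least 10 percentage points more H3K27me3 in wt+TNFα and 1 had less, against 17.0% and 1.26% of autosomal protein-coding genes and 29.2% and 1.36% of those without H3K4me3. Il17rb, among the 6, had H3K4me3 and is outside the latter background. At equal covered length, 2 of 9 bodies, Pou2f3 (70.5% and 97.7%) and Avil (24.0% and 67.1%), had more and 2, Il25 and Ptgs1, had less, against 5.92% and 4.68%. Pou2f3 and Avil were also the 2 that passed the margin when H3K27me3 peaks had to have a −log10 q of at least 2, against 10.9% of autosomal protein-coding genes. The lower value of Ptgs1 was the same there, against 0.640%.

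**Figure D4:**
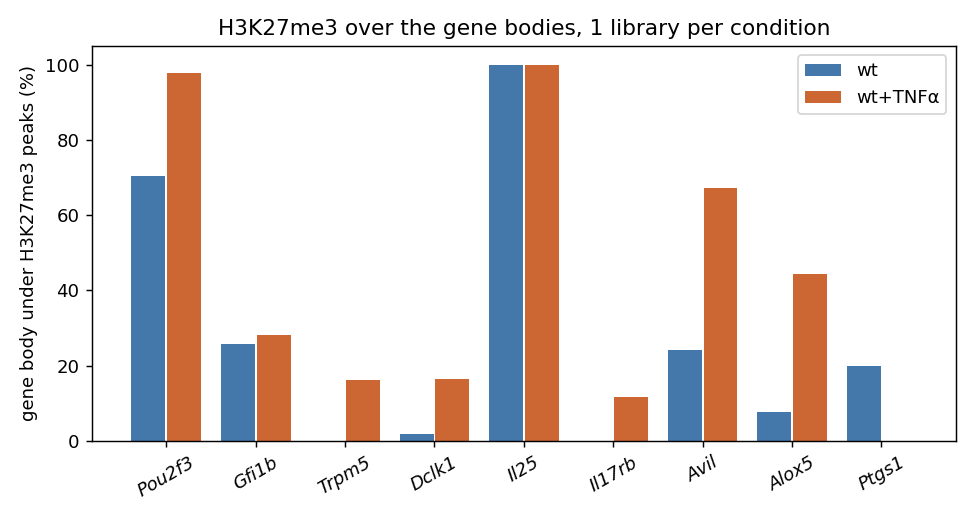
Percent of each gene body under H3K27me3 peaks in wt (blue bars) and wt+TNFα (orange bars) for the 9 tuft cell genes, 1 library per bar. Avil has the largest difference of the 9, 24.0% and 67.1%, and Ptgs1 alone has a lower value in wt+TNFα.

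The protein-coding genes whose 4 cover values were most alike, by the sum of absolute differences in percentage points, were Pla2g4e (0.0345) and Mei1 (0.0839) for Pou2f3. For Il25 they were Kcnj12 (0.175) and Ccdc105 (0.500), and for Il17rb Mvb12a (0.104) and Pex11a (0.193). Chrna10 (0.967) and Adamts6 (1.53) were nearest to Dclk1, and Olfr1368 (0.805) and Tmem89 (1.00) to Ptgs1. Alox5 was nearest to Gm11937 (1.16) and 2610028H24Rik (2.40), and Gfi1b to Igfbp2 and Mogat1 at 1.39 each among 3 ties. None was named for Trpm5, to which 5392 genes were equally near, or for Avil, which had no peak at its promoter.

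A further list held 32 other genes tied to tuft cells, such as receptors, G-protein subunits and eicosanoid enzymes. In wt, 11 of 32 promoters had H3K4me3 and 14 had H3K27me3, and in wt+TNFα the numbers were 12 and 16. Of autosomal protein-coding genes, 51.8% and 22.3% had these marks in wt and 52.5% and 27.5% in wt+TNFα. The added H3K4me3 gene was Ptgs2, which encodes the inducible cyclooxygenase-2, with a cover of 0% in wt and 27.2% in wt+TNFα from a narrow peak of 625 bp (chr1:150099747-150100371, fold enrichment 6.36). The wt+TNFα H3K4me3 library had more reads than the wt one, and the part of that in this call was not tested. Thus, of the cyclooxygenase genes, Ptgs1 had H3K27me3 in wt alone and Ptgs2 had H3K4me3 in wt+TNFα alone, as 1.50% of autosomal protein-coding genes did for H3K4me3. Atoh1, the secretory lineage factor, had H3K4me3 cover of 77.6% and 100% and H3K27me3 cover of 66.9% and 44.2%. Il4ra, a receptor chain for IL-4 and IL-13, had H3K4me3 cover of 42.1% and 52.2%. Of the G-protein subunit genes of the list, Gng13 had H3K27me3 cover of 72.2% and 98.2%, Gnb3 28.3% and 53.7%, and Gnat3 0% in both. The X-linked Il13ra1 and Bmx had 0% and 100%, on the chromosome whose H3K27me3 differed so widely between the lists. On the autosomes, H3K27me3 was called at 14 of 30 in both conditions. Plcb2, Chat and Gfi1 were at 100% in both without H3K4me3, and 9 of 32 genes, among them Hpgds, Sucnr1 and Siglecf, had no peak of either mark, against 25.9%.

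The counts of other lineage lists stand beside the same background, 22.3% and 27.5% of autosomal protein-coding genes for H3K27me3 and 51.8% and 52.5% for H3K4me3, in wt and wt+TNFα respectively. Of 14 enteroendocrine genes, 10 had H3K27me3 in each condition with a median cover of 100%, and 1 had H3K4me3. Of 12 goblet cell genes, 5 had H3K27me3 in wt and 7 in wt+TNFα, and 4 and 3 had H3K4me3. H3K27me3 in wt+TNFα alone was found at 6.48% of autosomal protein-coding genes. The mucus protein gene Fcgbp had H3K27me3 cover of 0% and 2.72%, and Creb3l1, a membrane-bound transcription factor of the CREB family, 0% and 100%. Its relative Creb3l4 had H3K4me3 cover of 25.5% and 0%. Of 12 stem cell genes, 10 had H3K4me3 and 3 had H3K27me3 in both conditions. No test between the lists was available.

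**Figure D5:**
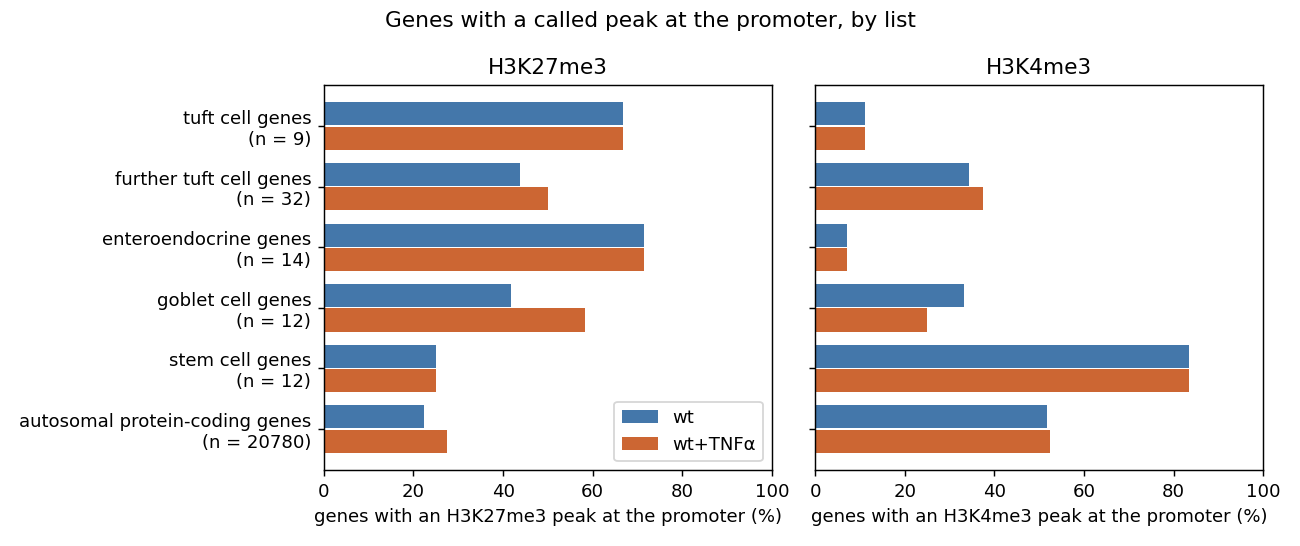
Percent of genes with a called peak of H3K27me3 (left) or H3K4me3 (right) at the promoter in wt (blue) and wt+TNFα (orange), for the tuft cell genes, 4 other lists and all autosomal protein-coding genes, with the number of genes beside each name. The tuft cell bars stand at 6 of 9 genes for H3K27me3 and 1 of 9 for H3K4me3 in both conditions.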

How the data were processed

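H3K4me3 and H3K27me3 peak lists of wt and wt+TNFα organoids were used, 1 library per mark and condition; the inputs and RNA were not analysed here. The authors aligned reads to GRCm38/mm10 with BWA 2.2, removed duplicates with SAMtools 1.11 and called narrow (H3K4me3) and broad (H3K27me3) peaks against input with MACS2 2.1.0 (versions from the submitters' processing notes, and the study's reporting summary gives another for MACS2). The deposited fold enrichment is a ratio of ChIP to local background, and the deposited files hold −log10 of the p-value and of the q-value. Planned depth was higher for H3K27me3 than for H3K4me3 per the labels. The study's reporting summary gives more H3K4me3 and input reads for wt+TNFα than for wt, and nearly equal H3K27me3 reads. The lists hold no read counts, so no interval was given.

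Peaks were merged within each list, and cover was computed in Python 3.11.15 and numpy 2.4.6 (plots, matplotlib 3.10.9) over promoters of GENCODE vM21 with an overlap of 1 bp and a margin of 10 percentage points for calling a difference. In simulated lists, cover was recovered for 200 of 200 genes. The 9 genes, the other lists and the rules were chosen with earlier results of these data known. All 9 were named; further tuft genes were named where a call or the margin differed, compared lists where presence differed, and a few others, such as genes at 100% in both or without a peak, after their values were seen. Alternatives were promoters of 500, 2000 or 5000 bp, coding starts, 1 start per gene, an overlap of 200 bp, a −log10 q of at least 2 or above the list's median, equal peak number and equal covered length. Gene body settings were added after the values were seen. All 32 further symbols matched, 1 of them (Ccdc129) as Itprid1.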

Additional observations from a re-analysis of the deposited data

How the results depend on the processing

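Settings on the transcript starts, the promoter width, the −log10 q and the length of the lists each moved some counts. H3K4me3 was called at 2 of 9 promoters in both conditions with 5000 bp on each side and at 0 with peaks above the median −log10 q, against 1. The share over all genes was not computed for H3K4me3 in these settings. The number of promoters with more H3K27me3 in wt+TNFα, 3, became 5 with 5000 bp, 0 with coding starts or with 1 start per gene, and 1 at equal covered length. The share of autosomal protein-coding genes, 13.3% in the main setting, was 19.8%, 11.9%, 10.3% and 5.26% in these settings, in that order. The number with less, 1, became 2 with 2000 bp, with 1 start per gene, above the median −log10 q and at equal peak number, and 3 at equal covered length. The share of autosomal protein-coding genes, 2.22% in the main setting, was 2.19%, 2.41%, 2.02%, 2.76% and 5.71% in these settings, in that order. With 1 start per gene, the Dclk1 difference was -42.0 against 15.4 percentage points. Over the gene bodies, settings chosen after seeing the data gave 2 genes with more in place of 6 at a −log10 q of at least 2 and at equal covered length, and 2 with less in place of 1 at equal covered length. The share of autosomal protein-coding genes with more was 10.9% and 5.92% in place of 17.0%, and with less at equal covered length 4.68% in place of 1.26%. The Ptgs1 promoter difference was at least 10 percentage points lower in 10 of 10 settings (-100 to -27.0), and Pou2f3 was higher in 8 of 10. The number of promoters with H3K27me3, 6 in each condition, was 5 (a −log10 q of at least 2) to 7 (5000 bp) in wt and 4 (equal covered length) to 8 (5000 bp) in wt+TNFα. In these settings the share of autosomal protein-coding genes was 14.0% and 29.1% in wt and 18.4% and 37.9% in wt+TNFα, against 22.3% and 27.5% in the main setting. Apart from the settings' own construction, the cause was not tested. No paired analysis was possible because the labels pair no samples and no result comes from a test. A difference between the conditions cannot be told apart from one between 2 libraries.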
